A study of Mus musculus with 10 samples.

Results

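Ribosomal protein pseudogenes are copies of ribosomal protein genes scattered over the mouse genome, and 140 of them were counted above a low threshold in RNA from mouse neural stem cells. They were the rows of the count table on chromosomes 1 to 19 whose symbol begins with Rpl or Rps and ends in -ps with or without a number, and that held 10 or more counts in at least 2 libraries. The table holds 52632 genes, 301 of them with such a symbol and 264 of those on an autosome. The other 124 autosomal rows stayed below the threshold. Just inside it lay Rps24-ps2 and Rps15a-ps2, with at most 13 and 17 counts in a library, and just outside it Rpl35a-ps6, Rpl21-ps3, Rps2-ps9 and Rpl21-ps7, with at most 12. The parent of each pseudogene was taken as the gene whose symbol remains without the -ps ending. The 140 members came from 50 parents, 62 from small-subunit (Rps) and 78 from large-subunit (Rpl) genes. Parents on chromosome 17 numbered 5 (Rpl10a, Rpl36, Rps2, Rps10 and Rps18), and 15 members derived from them.

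The study asked how a single copy of the E147A allele of SMCHD1 affects expression. SMCHD1 is a chromatin protein with an ATPase domain that takes part in gene silencing, on the inactive X chromosome and elsewhere, and E147A is a change in that domain. Cultures came from cortices of embryos at embryonic day 14.5, grown with EGF and FGF, and polyadenylated RNA was sequenced. By sex and genotype there were 2 libraries of females carrying E147A/+ and 2 of +/+ females, and 3 of each genotype in males. The mutant allele was fused to GFP, so every E147A/+ library carried the tag and the change together and no +/+ library carried either. All females, in both genotypes, also carried one XistdeltaA allele, which keeps the Castaneus X inactive, and males were XY. Embryos of every group had a Castaneus father and a 129/C57 F1 mother, and came from 4 litters. Both female +/+ libraries were from litter 3 and the female E147A/+ libraries from litters 1 and 2, so genotype and litter cannot be told apart in females. Males were from litters 1, 3 and 4. Counts assigned to the 129 and Castaneus (Cast) alleles were used for the 4 female libraries.

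Ribosomal proteins build the small and large subunits of the ribosome, and their genes are among the most strongly transcribed in dividing cells. Their mRNAs have often been copied back into DNA and inserted elsewhere, which leaves processed pseudogenes: copies without introns that usually lack the promoter of the parent. Because a young copy differs from the spliced parent mRNA at few bases, a short read from one can align to the other, and a count given to a pseudogene need not come from its transcription.

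The sequences of 3 members and of 2 parents show how little separates them. Rps18-ps6 and Rpl36-ps3 are shown because their counts differed between genotypes, and Rps12-ps10 because its level differed most among libraries of all members at 1 CPM or more (CPM, counts scaled by library size with TMM factors). Capitals mark the bases that differ between pseudogene and parent. Positions are counted from 1 at the 5′ end of the pseudogene, and each substitution gives the parent base, the position and the pseudogene base. Sequences are from GENCODE M21 transcripts on GRCm38, 5′ to 3′ on the strand of the gene. The stretch of Rps18-ps6 covers bases 220 to 485 of 561 (chr13:97760148-97760413, minus strand) and holds T230C, A381C, G415A and G475A. It is set against bases 176 to 441 of the coding sequence of Rps18, whose exons lie within chr17:33951999-33956001.
Rps18-ps6: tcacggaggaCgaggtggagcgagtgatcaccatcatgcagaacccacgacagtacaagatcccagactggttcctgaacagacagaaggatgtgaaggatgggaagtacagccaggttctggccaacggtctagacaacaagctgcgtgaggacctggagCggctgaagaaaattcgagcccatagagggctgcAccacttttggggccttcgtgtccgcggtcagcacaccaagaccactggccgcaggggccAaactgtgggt
Rps18: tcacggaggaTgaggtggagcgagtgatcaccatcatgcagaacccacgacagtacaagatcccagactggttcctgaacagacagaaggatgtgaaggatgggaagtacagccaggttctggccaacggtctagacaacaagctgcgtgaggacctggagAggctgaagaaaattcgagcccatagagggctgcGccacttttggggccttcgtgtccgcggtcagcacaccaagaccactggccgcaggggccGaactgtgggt
Rpl36-ps3 is shown from base 44 to base 237 (chr12:12912065-12912258, plus strand), which correspond to the same bases of the coding sequence of Rpl36 (exons within chr17:56613416-56614243), with G54A, C121T, G189A and G227A.
Rpl36-ps3: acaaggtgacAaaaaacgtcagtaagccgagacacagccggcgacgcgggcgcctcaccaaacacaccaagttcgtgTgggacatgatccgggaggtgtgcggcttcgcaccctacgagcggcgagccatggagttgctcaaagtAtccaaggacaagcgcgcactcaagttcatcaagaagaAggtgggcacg
Rpl36: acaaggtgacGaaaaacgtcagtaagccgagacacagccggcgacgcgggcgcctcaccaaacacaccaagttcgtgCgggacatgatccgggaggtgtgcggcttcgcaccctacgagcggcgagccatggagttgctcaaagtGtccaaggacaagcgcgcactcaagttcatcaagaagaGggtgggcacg
Rps12-ps10 is shown from base 65 to base 304 (chr2:122220057-122220296, plus strand). It carries C75A, G109A, A231C and C294G against Rps12, a chromosome 10 gene.
Rps12-ps10: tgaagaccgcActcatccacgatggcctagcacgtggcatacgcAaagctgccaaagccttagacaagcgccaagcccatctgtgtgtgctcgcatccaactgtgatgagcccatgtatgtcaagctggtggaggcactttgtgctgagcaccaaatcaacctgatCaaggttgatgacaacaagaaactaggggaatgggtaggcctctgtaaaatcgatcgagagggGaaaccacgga

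In 138 members at least 80% of the pseudogene aligned to the parent transcript, with a median identity of 98.7% (lowest 87.5%), and 52 were at 99% or more. The other 2, Rps7-ps2 and Rpl18-ps1, aligned over 28 and 11 columns only, so their named parents have no alignment support here. Reads were 80 bases long and sequenced in pairs, and each member was also divided into every overlapping window of 80 bases. Such windows stand for single reads, and the 2 reads of a pair were not examined together. In the median member 34.2% of windows occurred unchanged in a transcript of the parent, and 45.2% in a transcript of any other annotated gene. Every window was shared with the parent in 13 members and none in 12. Rps18-ps6 shared 45.6% of its windows with Rps18, and Rpl36-ps3 shared 3.81% of its own with Rpl36. How reads aligning to several places were counted is not given in the sources used here. The annotation classed 130 members as processed pseudogenes, 4 as transcribed processed pseudogenes and 6 as protein coding: Rpl36a-ps1, Rpl10-ps3, Rps18-ps5, Rps18-ps6, Rpl9-ps6 and Rps12-ps3. Of the 140, 19 lay inside a gene on the same strand, 36 overlapped a gene on the opposite strand, and 2 (Rpl19-ps1 and Rpl19-ps11) overlapped an exon of another gene on the same strand, so their counts may include that gene.

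Libraries held 20648916 to 44519020 counts. The members took 0.353% to 0.640% of them and the 50 parents 2.68% to 4.43%, both lowest in female +/+ replicate 1 and male +/+ replicate 3. Smchd1 itself was at 117.92 ± 2.88 CPM in female E147A/+, 155.7 ± 22.5 in female +/+, 115 ± 17.9 in male E147A/+ and 155.1 ± 34.8 in male +/+ (SD, n = 2, 2, 3 and 3). That is no check of the allele, which changes 1 residue. All 10 neural stem cell markers were expressed, and their summed level ran from 4917 to 6977 CPM, whereas none of 6 microglia and blood markers passed the filter on low counts. Markers of other cell types were present: 6 of 6 for neurons (541 to 1030 CPM summed), 4 of 4 for astrocytes (36.1 to 118), 4 of 5 for the oligodendrocyte lineage (6.87 to 37.9 in E147A/+, 21.2 to 126 in +/+) and 5 of 5 for endothelial and mesenchymal cells (2.96 to 12.8), and their part in the results was not tested. Female +/+ replicate 1 held 148 counts of Y-linked genes, 1.74% of the male rate, against 46 in female +/+ replicate 2 and 8 and 5 in female E147A/+. A Castaneus father gives each autosome 1 Cast copy, yet the median Cast share of a whole autosome ran from 0.148% to 50% over the 4 female libraries, with stretches near 0 and near 50% on different chromosomes in each. In this the female libraries go against the cross given in their labels, and which stretches carried Cast counts differed between libraries of the same genotype.

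Levels of the members spanned more than 3 orders of magnitude. Mean level over the 10 libraries ran from 0.130 to 660.5 CPM with a median of 4.50 CPM, and 14 members were at 100 CPM or more. The 5 highest were Rps6-ps4 (660.5 CPM), Rpl14-ps1 (295), Rpl19-ps11 (267), Rpl10a-ps1 (266) and Rps10-ps2 (236), and together they took 32.7% of all member counts. Per kilobase of transcript the median member was at 7.96 CPM and the median parent at 922, and 3 members exceeded their parent on that scale. Rps6-ps4, a copy of the gene for a phosphorylated small-subunit protein, matches its parent without a mismatch over 750 aligned bases.

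Of the 140 members, 137 passed the filter on low counts and entered the genotype comparison with 17110 genes in all. Over both sexes 2 members fell in E147A/+, Rps18-ps6 and Rpl36-ps3, and none rose past the threshold of 0.05 on the adjusted p (edgeR quasi-likelihood, Benjamini-Hochberg over all genes). Over all genes tested 0.0818% were called in either direction, 0.0351% lower and 0.0468% higher. Both called members have a parent on chromosome 17, which also carries Smchd1. In females 1 member was called, Rps18-ps6, lower (0.0117% of all genes, 0.00584% in each direction). That call was lost when only the female groups were fitted, or with litter as a covariate or a block for replicate number. It was also lost without either female E147A/+ library, female +/+ replicate 2, male E147A/+ replicate 1 or male +/+ replicate 2. In males the same 2 as over both sexes were called (0.0234% of all genes, 0.0117% in each direction). Of these Rps18-ps6 alone was left when only the male groups were fitted, or with litter as a covariate or a block for replicate number. The same held without male E147A/+ replicate 1 or 3. The sex by genotype interaction called none (0 of 17110 genes), with 2 members and 314 genes at an unadjusted p under 0.05. The p-values measure the spread between these libraries. Litter differed between the female E147A/+ libraries, among all male +/+ libraries, and between male E147A/+ replicate 3 and its replicates 1 and 2. Those libraries therefore came from separate embryos. The labels do not say so for the female +/+ libraries, both of litter 3, though their Cast stretches differed. Nor do they for male E147A/+ replicates 1 and 2, both of litter 1, between which the spread may be technical.

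**Figure D1:**
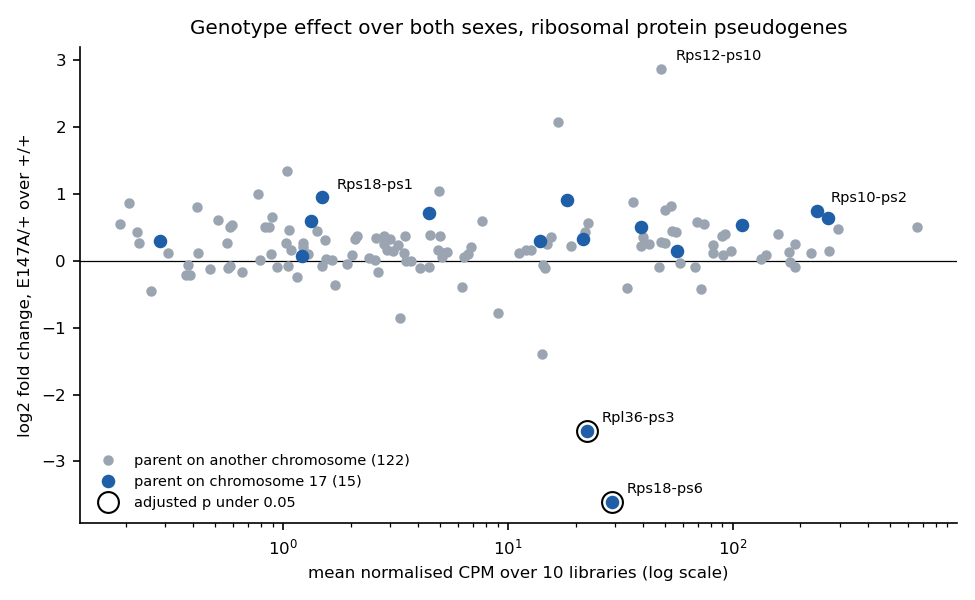
Log2 fold change of E147A/+ over +/+ across both sexes (vertical) against mean normalised CPM on a log axis (horizontal) for the 137 members tested, with the 15 whose parent lies on chromosome 17 in blue and rings around the called pair. Rps18-ps6 (-3.60) and Rpl36-ps3 (-2.54) lie far below the rest, and 13 of the 15 blue points lie above 0.

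Rps18-ps6 copies Rps18, whose protein sits in the head of the small subunit. It was counted 1279 and 2464 times in the female +/+ libraries and 1928, 1076 and 1411 times in the male +/+ libraries. In E147A/+ it was counted 224 and 212 times in females and 143, 91 and 140 times in males. As levels these were 40.7 and 63.3 CPM in female +/+, 66.5, 50.5 and 47.6 CPM in male +/+, 5.17 and 4.90 CPM in female E147A/+ and 3.83, 3.05 and 4.65 CPM in male E147A/+. Every E147A/+ library was below every +/+ library, and no value of one genotype came near the other. The log2 fold change was -3.60 (SE 0.208, adjusted p = 0.000189, edgeR quasi-likelihood), a 12.1-fold lower level. It was -3.37 in females (SE 0.313, adjusted p = 0.0162, with the losses of that call given above) and -3.83 in males (SE 0.262, adjusted p = 0.000948), by the same edgeR fit. The parent, Rps18, stood at 1584 and 1494 CPM in female E147A/+, 889 and 1430 in female +/+, 1205, 1060 and 1433 in male E147A/+, and 1468, 992 and 972 in males of +/+ genotype. Its groups overlapped in males and it had a log2 difference of 0.26 (SE 0.187, edgeR adjusted p = 0.824).

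Rpl36-ps3 copies Rpl36, a gene of the large subunit, and lies within the span of Gm40271 on the same strand. It was counted 1002 and 1689 times in female +/+, 1212, 1009 and 849 times in male +/+, 370 and 333 times in female E147A/+ and 180, 201 and 139 times in male E147A/+. Its levels were 31.9 and 43.4 CPM in female +/+, 41.8, 47.4 and 28.7 in +/+ males, 8.55 and 7.70 in female E147A/+, and 4.82, 6.73 and 4.62 in male E147A/+. Again the genotypes did not overlap. The log2 fold change was -2.54 (SE 0.207, edgeR adjusted p = 0.00166), a 5.81-fold lower level. In males it was -2.86 (SE 0.264, edgeR adjusted p = 0.0061, with the losses of that call given above), and in females, at -2.21 (SE 0.314), it missed the threshold (edgeR adjusted p = 0.222). Without female E147A/+ replicate 2 the effect over both sexes was -2.49 and the edgeR adjusted p was 0.0565, and with litter as a covariate they were -2.75 and 0.0938 (3 genes called, 0.0175% of all, Rps18-ps6 among them). Rpl36 itself differed by 0.37 on the log2 scale in the other direction (SE 0.145, edgeR adjusted p = 0.803).

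**Figure D2:**
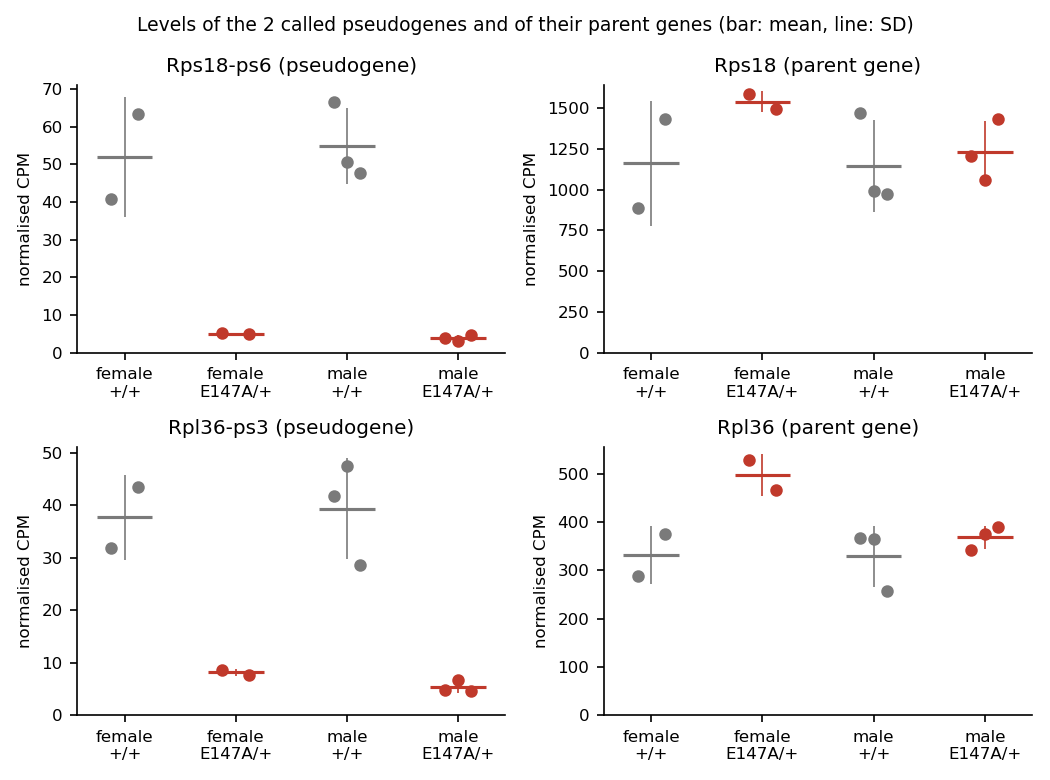
Normalised CPM (vertical, from 0) of Rps18-ps6 and Rpl36-ps3 and of their parents Rps18 and Rpl36 in each library by sex and genotype, with points for libraries, bars for group means and lines for the SD (n = 2 or 3). The pseudogenes separate by genotype in both sexes, and the parents overlap in males.

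Divided by the level of its parent in the same library, each of these pseudogenes gave 2 tight sets of values. Rps18-ps6 stood at 4.58% and 4.42% of the CPM of Rps18 in female +/+ and at 4.53%, 5.09% and 4.90% in male +/+. In E147A/+ it stood at 0.327% and 0.328% in females and 0.318%, 0.288% and 0.325% in males. Rpl36-ps3 stood at 11.0% and 11.6% of Rpl36 in female +/+ and 11.4%, 13.0% and 11.2% in male +/+, against 1.61% and 1.65% in female E147A/+ and 1.41%, 1.79% and 1.19% in male E147A/+. These shares are not corrected for length and compare libraries, not genes. On the log2 scale with a pseudocount of 0.5 CPM the ratios differed by -3.73 and -2.82, each with an exact two-sided permutation p of 0.0167 within sex. That is the smallest p that the 120 regroupings allow, and after Benjamini-Hochberg adjustment over all 140 pairs the smallest was 0.292, so no ratio passed.

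Strain around the 2 parents followed genotype in the female libraries. In the 5 Mb on each side of Rps18, the median Cast share of genes other than ribosomal protein genes was 0.342% and 0.10% in E147A/+ against 48.5% and 48.0% in +/+. Around Rpl36 it was 0.429% and 0.137% in E147A/+ against 48.5% and 50.1% in +/+. Genotype and the presence of Castaneus sequence on chromosome 17 therefore cannot be told apart in the 4 female libraries, and in males the allelic counts were not analysed here. Rpl36-ps3 itself gave 70 and 51 counts assigned to 129 in E147A/+, and 56 and 103 in +/+. Its Cast counts numbered 80 and 86 in E147A/+ but 543 and 947 in +/+. The Cast share was 53.3% and 62.8% in E147A/+ (95% Wilson intervals 45.4 to 61.1 and 54.4 to 70.4) and 90.7% and 90.2% in +/+ (88.1 to 92.7 and 88.2 to 91.8). Around Rpl36-ps3 on chromosome 12 nearby genes had Cast shares of 52.3%, 0.0737%, 49.5% and 51.6% in the same order of libraries, so 86 of 137 allelic counts went to Cast in a library where its neighbours had almost none. Rps18-ps6 had at most 2 allelic counts in any library, too few for a share.

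The other 13 members with a parent on chromosome 17 all had fitted differences above 0, and none passed the threshold. Without single libraries 2 of them crossed 0, Rpl10a-ps4 (lowest -0.073) and Rps2-ps10 (lowest -0.15). The log2 differences of the 13 ran from 0.071 (Rpl10a-ps4) to 0.95 (Rps18-ps1), and with the called pair the median of the 15 was 0.50, against 0.16 over the 122 tested members with a parent elsewhere, 0.25 over the 50 parents and -0.014 over all genes tested. The median of the 15 ran from 0.31, without male E147A/+ replicate 3, to 0.62 without single libraries. Rps10-ps2, a copy of the gene for a small-subunit protein, stood at 360 and 340 CPM in female E147A/+ and 152 and 204 in female +/+, and at 238, 245 and 283 in male E147A/+, against 187, 216 and 134 in males of +/+ genotype. Its libraries did not overlap by genotype in either sex, with a log2 difference of 0.75 (SE 0.158, edgeR adjusted p = 0.291). Rpl10a-ps1, identical to its parent over all 654 bases, stood at 350 and 313 CPM in female E147A/+, 172 and 234 in female +/+, 312, 289 and 349 in male E147A/+, and 242, 232 and 166 in +/+ males. It did not overlap either, with a log2 difference of 0.64 (SE 0.150, edgeR adjusted p = 0.408). DESeq2 on the same counts called both of these higher, with adjusted p of 0.00849 and 0.0343, in a fit that called 113 of 17066 genes (0.662%).

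Rpl36-ps12, a second copy of Rpl36, was at 158 and 134 CPM in female E147A/+, 81.3 and 103 in female +/+, 109.9, 109 and 132 in male E147A/+, and 101, 98.9 and 66.1 in +/+ males (log2 difference 0.53, SE 0.155, edgeR adjusted p = 0.682). Rps18-ps1 was at 2.01, 2.08, 1.58, 1.67 and 2.46 CPM in the 5 E147A/+ libraries and at 0.828 to 1.17 CPM in the 5 +/+ libraries (log2 difference 0.95, SE 0.292, edgeR adjusted p = 0.701). Neither overlapped by genotype in either sex, and copies of 1 parent thus stood on both sides of 0: Rps18-ps1 at 0.95, Rps18-ps3 at 0.29, Rps18-ps5 at 0.15 and Rps18-ps6 at -3.60 on the log2 scale. Without single libraries Rps18-ps3 ran from 0.085 to 0.60 and Rps18-ps5 from 0.031 to 0.30. The copies of Rpl36 stood at 0.71 (Rpl36-ps2), 0.53 (Rpl36-ps12) and -2.54 (Rpl36-ps3). The copies of Rps2 were less even among libraries. Rps2-ps5 was at 16.1 to 39.4 CPM in E147A/+ males and 6.95 to 14.9 in +/+ males (log2 difference over both sexes 0.90, SE 0.299, edgeR adjusted p = 0.730). Rps2-ps6, Rps2-ps10 and Rps2-ps11 had log2 differences of 0.59, 0.32 and 0.29. Without male E147A/+ replicate 3 these were 0.31, -0.15 and 0.0037. Their groups overlapped in males, those of Rps2-ps11 also in females. With litter as a covariate the 4 Rps2 copies had differences of 1.58, 1.34, 1.87 and 1.93 (Rps2-ps5, Rps2-ps6, Rps2-ps10 and Rps2-ps11), none past the threshold. Rps10-ps1, with 0.50, overlapped in males only, and Rpl10a-ps4 and Rps18-ps3, with 0.071 and 0.29, overlapped in both sexes.

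Among all 140 members the libraries of the genotypes did not overlap in both sexes for 9. In 7 of them E147A/+ was higher (Rpl10a-ps1, Rps18-ps1, Rps4x-ps, Rpl36-ps12, Rps12-ps24, Rps2-ps5 and Rps10-ps2, 5 with a parent on chromosome 17), against 1.16% of all genes tested. In 2 it was lower, the called pair, against 1.27% of all genes. Of the 137 members tested, 103 had a fitted log2 difference above 0 and 34 below, with a median of 0.21 (0.28 in females, 0.12 in males). Over all genes tested 8210 were above 0 and 8900 below. At an unadjusted p under 0.05, 19 members were higher (3.05% of all genes) and 2 lower (2.85%). The parents leaned the same way without a call: 44 of 50 had a difference above 0, 13 had an unadjusted p under 0.05, all higher, and the share of counts in parents was lowest in a pair of +/+ libraries, as given above. The part of that share in the members' differences was not tested.

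Members outside chromosome 17 families with the lowest p were Rps12-ps24, Rps16-ps2, Rpl14-ps1 and Rps4x-ps. Rps12-ps24 was at 3.95 and 9.32 CPM in female E147A/+ and 1.66 and 2.83 in female +/+. In males it was counted 272, 151 and 189 times in E147A/+ and 85, 106 and 149 times in +/+. As levels, the lowest E147A/+ male stood only just above the highest +/+ male. Its log2 difference over both sexes was 1.04 (SE 0.325, edgeR adjusted p = 0.702). That was 0.69 without female E147A/+ replicate 2 and 0.58 with litter as a covariate. Its parent Rps12, a small-subunit gene, differed by 0.78 (SE 0.159, edgeR adjusted p = 0.26), the highest value among the parents, and all 7 Rps12 copies had differences from 0.34 to 2.87. Rps16-ps2, identical to Rps16 over 441 bases, differed by 0.55 (SE 0.177, edgeR adjusted p = 0.727) and Rpl14-ps1 by 0.47 (SE 0.152, edgeR adjusted p = 0.727), both with overlapping males. Rps4x-ps, the autosomal copy of the X-linked Rps4x, was at 29 and 24 CPM in female E147A/+, 14.4 and 20.4 in female +/+, 22.4 to 31.7 in E147A/+ males and 14.95 to 21.8 in +/+ males (log2 difference 0.56, SE 0.184, edgeR adjusted p = 0.727). Of the 3 most abundant members, Rpl14-ps1 is given above, and Rps6-ps4 and Rpl19-ps11 differed by 0.50 (SE 0.334) and 0.15 (SE 0.134) on the log2 scale, with edgeR adjusted p of 0.824 and 0.835.

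Relative to their parents, 8 of 140 members had ratios that did not overlap by genotype in both sexes, 4 higher (2.86%) and 4 lower (2.86%) in E147A/+. These percentages are shares of the 140 pairs themselves, and no rate over other genes stands beside them. Of the 8, 6 belong to chromosome 17 parents: Rpl10a-ps1, Rps18-ps1, Rpl36-ps12 and Rps10-ps2 higher, Rps18-ps6 and Rpl36-ps3 lower. The other 2, Rps23-ps2 and Rps12-ps9, were lower by 0.32 and 0.48 on the log2 scale (differences of -0.316 and -0.476). Rpl10a-ps1 stood at 37.8%, 39.3%, 37.0%, 37.2% and 36.6% of the CPM of Rpl10a in the 5 E147A/+ libraries and at 28.2%, 29.5%, 29.7%, 28.4% and 28.7% in the 5 +/+ libraries. No value of one genotype reached the other. Its parent had a log2 difference of 0.26 over the same libraries (SE 0.151, edgeR adjusted p = 0.821).

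Some members varied widely among libraries of the same genotype. Of the 110 members with a mean level of 1 CPM or more, 10 had a highest library at least 10 times the lowest, against 5.28% of all genes at that level. Besides the called pair and Rps2-ps10 they were Rps12-ps10, Rps13-ps2, Rps12-ps5, Rps15-ps2, Rpl27a-ps4, Rpl28-ps3 and Rps26-ps1, which are named here because of these values. Rps12-ps10 was at 117 CPM in female E147A/+ replicate 2 but 1.22 in replicate 1, and at 2.42 and 1.10 in female +/+. In males it was at 73.3, 75.4 and 71.1 CPM in E147A/+ and 0.724, 78.8 and 59.6 in +/+. Rps15-ps2 was low in the same 4 libraries (1.39, 1.59, 1.67 and 1.17 CPM) and at 17.4 to 31.2 CPM in the other 6. Rpl27a-ps4 showed another split, at 27.0, 24.7 and 23.8 CPM in female E147A/+ replicate 1, female +/+ replicate 2 and male +/+ replicate 1, and at 1.24 to 3.12 CPM elsewhere. Libraries of 1 genotype thus lay at either level, and no library lay between the 2 levels for these 3 members.

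**Figure D3:**
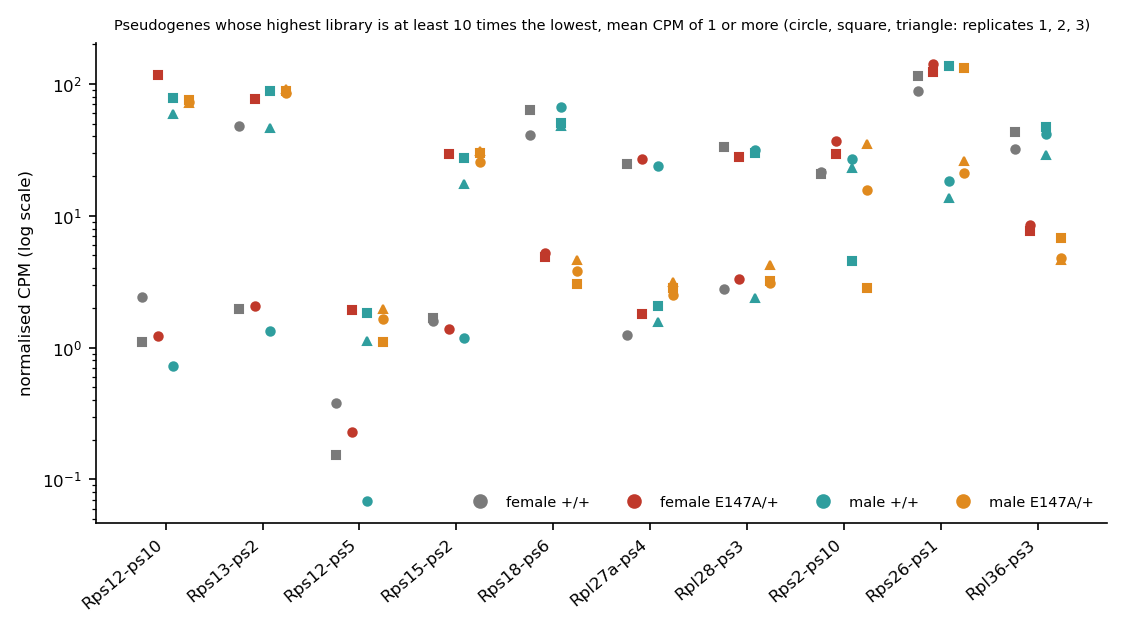
Normalised CPM on a log axis of the 10 members whose highest library is at least 10 times the lowest, with colour for sex and genotype and shape for replicate number. Of these 10, Rps18-ps6 and Rpl36-ps3 split by genotype, and in Rps12-ps10 or Rps13-ps2 libraries of 1 genotype lie at both levels.

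In the 4 female libraries these splits were set beside the strain of the stretch around the parent. A library was placed by the median Cast share of non-ribosomal genes within 5 Mb of the parent, near 50% (35 to 65%) or under 15%. This grouping is not one of the study's, was chosen after the data were seen and is given without a test. Only members at a mean of 0.2 CPM or more in these libraries were used, and all 4 libraries had to be placed. For 101 members, from 31 parents, the 4 libraries fell into both classes. Of those members 20 (19.8%), from 15 parents, were at least 2-fold higher without overlap in the libraries near 50%, and 5 (4.95%), from 4 parents, at least 2-fold lower. Among the 98 such members that met the count threshold in the male libraries alone, a check added later, 19 were higher (19.4%) and 5 lower (5.10%). The 20 include the called pair, for which the 2 classes were the 2 genotypes, so their folds repeat the genotype difference. They also include Rps7-ps2, placed by Rps7, to which its 1347 bases aligned over 28 columns only. Over the 99 members aligned to their parent over at least 80% of their length, also a later check, 19 from 14 parents were higher (19.2%) and 5 lower (5.05%). Among 13069 other autosomal genes at that level, placed by their own surroundings, 4.59% were higher and 5.64% lower. These genes were not placed by a stretch elsewhere, so their shares are not a like background for placement by parent. None of 32 parents differed by 2-fold when placed by their own surroundings. Placed by their own surroundings instead, 114 members fell into both classes, of which 3 were higher and 9 lower (10.5% in all, against 10.2% of the other genes). Members of 1 family share their parent, and the 4 libraries share each stretch, so these counts are not independent.

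At least 5-fold higher where the parent lay in a stretch near 50% Cast were 7 members, of which 6 had folds that rest on more than a few counts: Rps12-ps10 (73.6-fold), Rps15-ps2 (18.96-fold), Rpl27a-ps4 (17-fold), Rps18-ps6 (10.3-fold), Rpl28-ps3 (10.1-fold) and Rps12-ps5 (7.59-fold). The other, Rps15a-ps2, had 17 and 17 counts in the libraries near 50% and 7 and 0 in the others. It reached the count threshold through the first pair alone, so it had to differ. Rps12-ps10 was at 117 CPM in the 1 library where the share around Rps12 was 55.9%, and at 1.10 to 2.42 CPM in the 3 where it was 4.82%, 7.02% and 6.22%, while around Rps12-ps10 itself the share was 47.2% to 50.6% in all 4. Rpl28-ps3 was at 28.1 and 33.1 CPM where the share around Rpl28 was 49.6% in both, and at 3.30 and 2.77 CPM where it was 0. Rpl36-ps3 was 4.63-fold higher. For it and Rps18-ps6 the libraries near 50% were the female +/+ ones, so these folds repeat the genotype difference by which both were called. Some went the other way. Rps13-ps2, identical to Rps13 over 453 bases, was 31.2-fold lower near 50%, at 2.08 and 1.95 CPM against 77.3 and 48.3 CPM. It lies on chromosome 7 like its parent, so its own surroundings had the same order of Cast share (50.6% and 50.6% against 0.084% and 0.667%). Another copy, Rps13-ps1 on chromosome 8, was 2.85-fold higher in the same libraries, at 171 and 147.3 CPM against 66.8 and 44.8. Rps6-ps4 was at 245 CPM in female +/+ replicate 1, where the share around Rps6 was 49.9%, and at 914, 820 and 740 CPM where it was 2.29% to 3.19%.

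**Figure D4:**
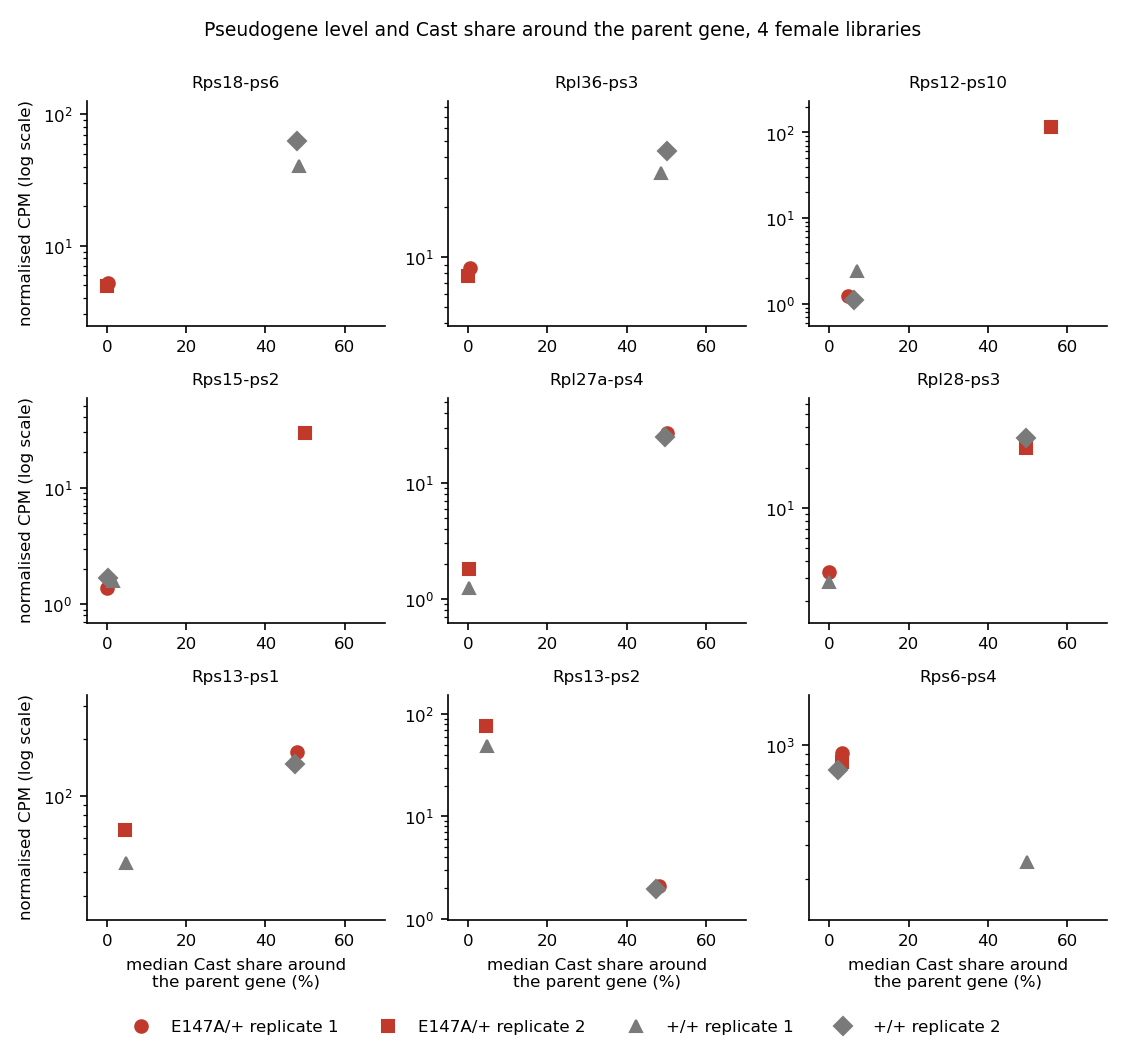
Normalised CPM on a log axis (vertical) of 9 members in the 4 female libraries against the median Cast share in percent of genes around the parent (horizontal), with colour for genotype and shape for library. Levels are higher on the right in the first 7 panels and lower on the right in Rps13-ps2 and Rps6-ps4.

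Relative to the parent, these members again took 2 levels. Rps12-ps10 stood at 12.4% to 14.9% of the CPM of Rps12 in 6 libraries and at 0.195% to 0.944% in the other 4. Rps15-ps2 stood at 2.98% to 3.43% of Rps15 or at 0.109% to 0.206%. Rpl27a-ps4 stood at 2.75%, 3.27% and 3.05% of Rpl27a in 3 libraries and 0.233% to 0.450% in the other 7. Rps6-ps4 stood at 44.6% and 45.7% of Rps6 in female +/+ replicate 1 and male E147A/+ replicate 2, and at 109% to 142% in the other 8. The parents ranged less, Rps12 for instance from 256 to 782 CPM.

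Allelic counts of the members set them apart from other genes. In the female libraries 6.86% to 8.44% of member counts were matched by an allele-assigned count, against 30.6% to 31.7% over all genes and 28.3% to 30.7% in the parents. Of the 140 members 70 had 10 or more allelic counts in at least 1 library, 47 in every one, and 56 had at most 3 in each. In 8 members the allelic counts exceeded the total in at least 1 library, so the 2 were not made by 1 rule throughout. Rpl10a-ps4 is one, with 79 and 124 allelic counts in the +/+ libraries, 293% and 230% of its total, against 17 and 15 in E147A/+. Over the 47 members the summed Cast share was 70.2% and 70.8% in E147A/+ and 72.8% and 66.3% in +/+. The means differed by 0.945 points (70.5 ± 0.37 against 69.6 ± 4.58, SD, n = 2 each), within the spread of the libraries (exact two-sided permutation p = 1, with 0.333 the smallest possible).

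The Cast share of single members was often extreme. In 17 of the 47 the Cast share was over 90% in all 4 libraries, in 6 under 10%, and in none between 35% and 65% throughout. At the high end in +/+, Rpl36a-ps1 had Cast counts alone, 29, 25, 19 and 32 of them in E147A/+ replicates 1 and 2 and +/+ replicates 1 and 2. Rpl7-ps8 had 76 of 76, 46 of 48, 24 of 24 and 75 of 75, and Rps2-ps5 33 of 34, 29 of 30, 11 of 11 and 24 of 24. At the low end Rps15a-ps7 had 0 Cast counts of 70, 60, 23 and 53, which allows shares of up to 4.29%, 5%, 13.04% and 5.66% for counting error. Rpl10a-ps4, with 1 Cast count in each library, had shares of 0.806% to 6.67%. Among members with a parent on chromosome 17, Rpl36-ps12 had shares of 99.8% to 100% over 1443 to 4403 allelic counts, Rps10-ps2 98.99% to 99.6% over 242 to 695, and Rpl10a-ps1 0.738% to 1.53% over 391 to 1220. Each of these 3 members stayed at its extreme in all 4 libraries, although the Cast share around Rpl36, for one, went from 0.137% to 50.1%.

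The Cast share of a member often differed from that of its surroundings. Counting each member in each library where it had 10 or more allelic counts, 125 pairs had a Cast share under 15% among nearby genes, and in 86 of these the member itself was over 50% Cast, in 48 over 90%. Per library that was 62.5% to 79.3% of such members, against 3.22% of other genes in such stretches. Of 93 pairs with nearby genes near 50%, 7 had a member share from 35% to 65%, 37 were over 90% and 25 under 15%, whereas 79.9% to 80.5% of other genes, by library, lay in that range. Rpl7-ps8 is an example. All 76 and all 75 of its allelic counts were Cast in E147A/+ replicate 1 and +/+ replicate 2, where nearby genes had 0.108% and 0.241%.

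**Figure D5:**
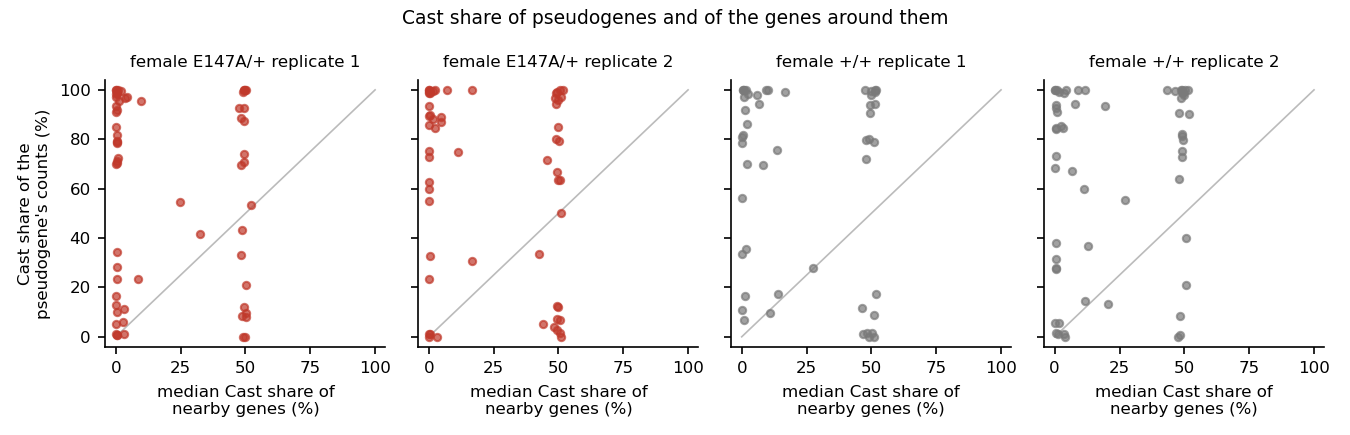
Cast share in percent of each member with 10 or more allelic counts (vertical) against the median Cast share of genes within 5 Mb of it (horizontal), 1 panel for each female library, with a grey line where both are equal. Nearby genes gather near 0 and 50% and few points lie on the line, with many members near 100% at either position.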

How the data were processed

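The authors deposited a table of raw counts by gene in 10 libraries. It also holds 129 and Cast counts, which were used in the 4 female ones. Libraries were stranded and poly(A)-selected, and 80 bp paired-end reads were sequenced, per the labels' protocols. Trim Galore 0.4.4, HISAT2 2.0.5, R 3.5.1, featureCounts and edgeR 3.24.0, with GRCm38 and mm10, stand in the submitters' processing notes. The treatment of multi-mapping reads, the strand setting and the allele assignment are not given in the sources used here. Members and gene lists were chosen with earlier results of these data known.

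Counts were filtered (filterByExpr), TMM-normalised and tested in edgeR 4.0.16 (R 4.3.3) by quasi-likelihood, with 1 mean per sex and genotype over all 10 libraries (6 residual degrees of freedom) and adjustment over 17110 genes. Log2 ratios to the parent (pseudocount 0.5) and Cast shares were compared by exact two-sided permutation, the former within sex. Wilson 95% intervals and the floor of 3 counts cover counting error only. Transcripts of GENCODE M21 were aligned locally with Biopython 1.88; all 140 IDs matched. Methods were tested on simulated data. Genes were named by this rule: called members, the 10 lowest p over both sexes, the 5 highest levels, all with a parent on chromosome 17, the 3 highest and 3 lowest Cast shares in +/+ females, their parents and Smchd1. A gene under the rule is not reported here. Others are said to be named for their values: the range, ratio and neighbourhood lists. Alternatives were DESeq2 1.42.0, other normalisation, filters, pseudocounts and allelic minimums, a replicate block, litter and leaving out libraries.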

Additional observations from a re-analysis of the deposited data

How the results depend on the processing

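Members called over both sexes numbered 4 with DESeq2 (of 113 genes called in all, against 14 in the edgeR fit), adding Rps10-ps2 and Rpl10a-ps1, and 1 with litter as a covariate (of 3 genes), where Rpl36-ps3 was lost (-2.75, adjusted p = 0.0938, edgeR). Over the alternatives the edgeR or DESeq2 adjusted p of Rps18-ps6 was at most 0.0484. In females 2 were called with DESeq2 (of 44 genes) and with no filter (of 8), and 0 with only the female groups or litter. In males 1 was called with only the male groups or litter. Leaving out single libraries gave 1 to 2 over both sexes, 0 to 1 in females, 1 to 2 in males and 8 to 13 separated ratios. The 1 over both sexes came without female E147A/+ replicate 2. The 0 in females came without either female E147A/+ library, female +/+ replicate 2, male E147A/+ replicate 1 or male +/+ replicate 2, and the 1 in males without male E147A/+ replicate 1 or 3. A pseudocount of 2 gave 13 separated ratios and one of 0.1 gave 7, each holding 7 of the 8. Among uncalled members the sign changed: Rpl10a-ps4 was at -0.073 without female +/+ replicate 1 and -0.044 without male +/+ replicate 3 (up to 0.26 without the others), and Rps2-ps10 at -0.15 without male E147A/+ replicate 3 (up to 0.57 without the others and 1.87 with litter). Rps2-ps11, also uncalled, ran from 0.0037 to 0.70 without single libraries. The causes were not tested. The median over the 15 members with a parent on chromosome 17 stayed between 0.31 and 0.71.

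Replicate numbers come from titles and were not taken as pairs in the main fit. Same-numbered deviations correlated at -0.328 in females and -0.256, 0.476 and 0.038 in males (replicates 1, 2 and 3). In males, replicate 2 of both genotypes was from litter 1 and replicate 3 of both from litter 3. Other replicates of the same number did not share a litter. With a replicate block 2 members were called over both sexes, 0 in females and 1 in males. With the female numbers crossed, an alternative chosen after seeing the data, the counts were 2, 0 and 2. The difference in summed Cast share ran from -2.30 to 4.19 points when single female libraries were left out. With 2 or 3 libraries a group, small differences were not detectable. Neighbourhoods of 2 or 10 Mb, also added later, placed 24.1% and 25.3% of members as 2-fold higher or lower by parent, against 24.8% at 5 Mb.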
